A study of Mus musculus with 58 samples.

Results

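Chromatin-associated RNA and nascent run-on RNA were compared insert by insert at one reporter site of mouse embryonic stem cells. The comparison used 8 libraries of the 58 samples of the series, namely 2 chromatin RNA libraries, 2 run-on RNA libraries and the genomic DNA (gDNA) libraries of the same 4 screens. Each library was assigned to its kind by its label, and to a screen, numbered here, by the replicate numbers in the labels. The assay, INSERT-seq, integrates a pool of short sequences behind one promoter and counts, for each insert, the RNA it yields against the integrated copies. The series asked which transcribed sequences let RNA polymerase II elongate.

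All cells were untreated F121-9 mouse embryonic stem cells, a hybrid line whose parental alleles differ in sequence. In every group the 129 allele of Pou5f1 (it encodes Oct4, a transcription factor of pluripotency) carried mKate2 (a red fluorescent protein gene) 172 nt from the upstream antisense start site and TagBFP2 (a blue one) at the C terminus of Oct4. The inserts stood 157 nt from that start site, upstream of mKate2, so they lay in the antisense transcript and not in the Oct4 message. The protein-coding Pou5f1 gene spans chromosome 17, 35506032 to 35510777, in GRCm38. Chromatin RNA, replicates 2 and 3, was placed by its replicate numbers in screens 2 and 3, whose gDNA and total RNA were also read. Run-on RNA, replicates 1 and 2, came from cells permeabilized and incubated for 15 min with biotinylated C and U, with the labelled RNA bound to streptavidin. Its replicate 1 shared gDNA with total RNA replicate 4 (here screen 4), and its replicate 2 came from a further screen (screen 5) with no total RNA. Both kinds were reverse transcribed with a primer 221 nt downstream of the inserts. No screen had both kinds of RNA, so the kind of RNA cannot be told apart from the screen. Nothing in these libraries reads an endogenous gene, so the cell type could not be checked on its markers.

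Chromatin-associated RNA is what stays with the DNA when nuclei are stripped, both growing transcripts and finished ones not yet released. A run-on marks only RNA that an engaged polymerase lengthens during the reaction. Mammalian introns are cut out by the spliceosome, much of it while the polymerase is still on the gene. Both kinds of RNA can thus hold spliced molecules before export. An insert that holds a pair of splice sites is therefore read in 2 forms, unspliced and spliced.

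The pool held 16461 inserts of 175 nt, of which 2404 had at least 1 spliced reference sequence, with 21 to 155 nt removed, and 14057 had none. Chromatin RNA libraries held 16790568 and 14578786 reads, and run-on libraries 47950126 and 61202674. The gDNA libraries held 14956180 and 13481092 reads for the chromatin screens, and 28281302 and 29442628 for the run-on screens. The 14208 inserts with at least 50 reads in each of the 4 gDNA libraries were compared, and the other 2253 were not. The level of an insert is log2 of its RNA reads over its gDNA reads, each with a prior count of 2 reads, minus the library's median, so 0 is the median insert. Its spliced share is the percentage of its RNA reads on a spliced reference. No insert sequences are in the files used here, and insert numbers are not paired with genes.

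The 2 kinds of RNA stood apart in splicing at inserts whose spliced form lacks a long stretch. Among 473 inserts with 120 nt or more removed, the median spliced share was 15.3% and 12.0% in the chromatin libraries, against 39.2% and 23.2% in the run-on libraries. Both chromatin values were below both run-on values, and the means were 13.6% ± 2.34 and 31.2% ± 11.3 (SD, n = 2 each). The difference was -17.6 percentage points. With 2 libraries against 2, an exact permutation test (two-sided) gave p = 0.333, the smallest it can give, so the test cannot pass 0.05. Without run-on replicate 1 the difference was -9.59 points, and without run-on replicate 2 it was -25.5 points.

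Over all inserts of a class, the medians of the shorter removed stretches were not in that order. Among 575 inserts with 70 to 94 nt removed, the median share was 7.89% and 8.32% on chromatin, against 6.47% and 4.16% in run-on RNA. There the chromatin libraries stood higher, by 2.80 points (exact permutation p = 0.333, two-sided). The difference was 1.64 points without run-on replicate 2, and 1.65 points on pooled reads, where the libraries overlapped at 21.9% and 18.8% on chromatin, against 23.0% and 14.5% in run-on RNA. Among 531 inserts with 95 to under 120 nt removed the libraries overlapped, with 11.0% and 10.5% on chromatin, against 14.8% and 6.97% in run-on RNA. Below 70 nt removed, the median of 298 inserts was 0% in all 4 libraries. Over all 2004 inserts compared for splicing the medians also overlapped, at 5.24% and 4.94% on chromatin, against 7.05% and 4.56% in run-on RNA (exact permutation p = 1, two-sided).

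**Figure D1:**
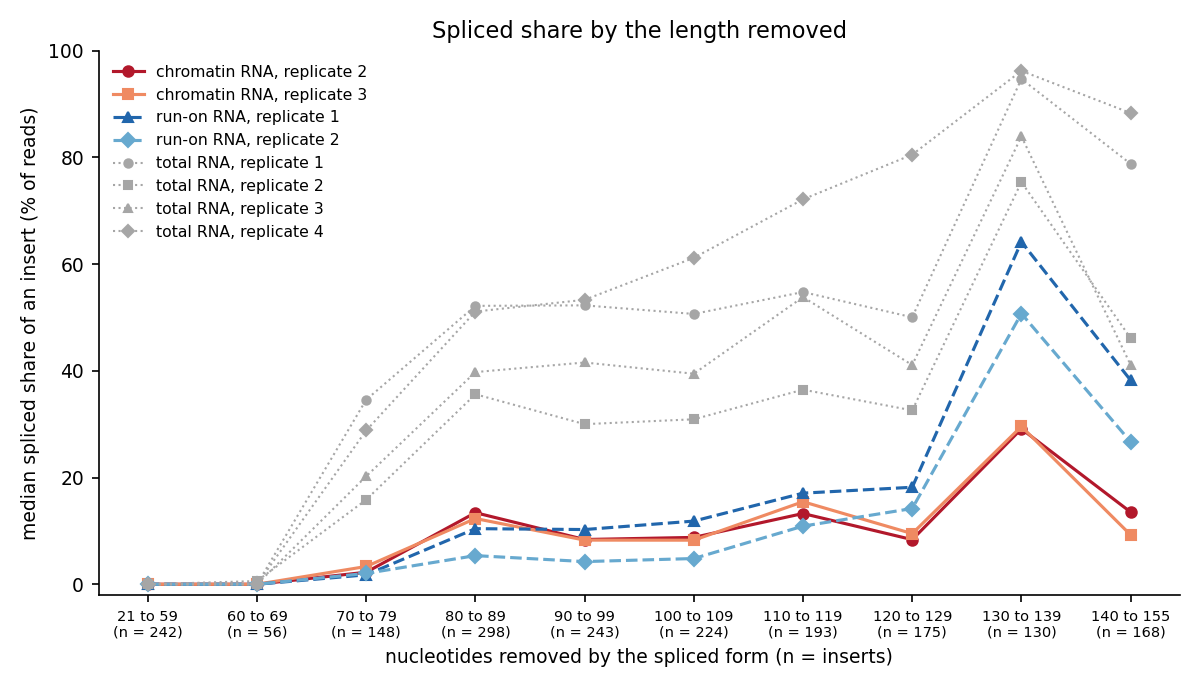
Median spliced share of an insert (percent of its reads) by the number of nucleotides its single spliced form removes, 1 line per library. Chromatin and run-on libraries lie close together below 120 nt and part from 120 nt on, where both run-on lines are above both chromatin lines. Total RNA (grey) is above both kinds from 70 nt on.

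In bins of 10 nt, added after seeing these values, the medians over all inserts of a bin parted from 120 nt on. From 110 to under 120 nt removed (193 inserts) the median share was 13.3% and 15.5% on chromatin, against 17.1% and 10.9% in run-on RNA. From 120 to under 130 nt (175 inserts) it was 8.37% and 9.49% on chromatin, against 18.2% and 14.2% in run-on RNA. The bin from 130 to under 140 nt (130 inserts) had the highest shares in every library, with 29.1% and 29.6% on chromatin, against 64.2% and 50.7% in run-on RNA. From 140 to 155 nt (168 inserts) it was 13.5% and 9.25% on chromatin, against 38.2% and 26.7% in run-on RNA. All 3 bins from 120 nt had both chromatin libraries below both run-on libraries.

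Counted insert by insert, the long class leaned the same way. Both chromatin shares were below both run-on shares in 515 of 2004 inserts (25.7%), and above both in 279 (13.9%). In the class with 120 nt or more removed this was 186 of 473 lower (39.3%) and 42 higher (8.88%). In the class with 70 to 94 nt removed, 110 of 575 were lower (19.1%) and 109 higher (19.0%). The class with 95 to under 120 nt removed was between them, with 121 of 531 lower (22.8%) and 87 higher (16.4%). The class under 70 nt, whose medians were 0%, had 59 of 298 lower (19.8%) and 20 higher (6.71%), so it too had more inserts lower than higher. Inserts with 2 or more spliced forms had 39 of 127 lower (30.7%) and 21 higher (16.5%). Of the 515 inserts lower on chromatin, 272 had no spliced read in either chromatin library. Of the 279 higher there, 12 had none in either run-on library. Chromatin libraries were read less deeply, at a median of 872 and 720 reads an insert, against 2405 and 2828 in run-on RNA. The part of depth in these counts was not tested. The counts describe the classes, and inserts are not replicates of a condition.

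The length classes were also compared among inserts of a like spliced share in siNT cells. Cultures of the same reporter cells given control siRNA, here called siNT cells, whose libraries are not among the 8, were used to sort inserts by their spliced share in total RNA, a split by length and share that was added after seeing the data. Among inserts spliced at 50 to 90% there, those with 120 nt or more removed (84 inserts) had median shares of 7.86% and 6.76% on chromatin, against 34.6% and 17.8% in run-on RNA. Of these, 58 (69.0%) had both chromatin shares below both run-on shares, and 7 (8.33%) above, beside 25.7% and 13.9% of all 2004 inserts. Those with 70 to 94 nt removed (120 inserts) had 20.2% and 17.3% on chromatin, against 20.9% and 12.4% in run-on RNA, which overlap. Those with 95 to under 120 nt removed (95 inserts) overlapped too, with 18.0% and 15.5% on chromatin, against 17.6% and 8.81% in run-on RNA. Total RNA of the screens compared did not keep the siNT match. At 120 nt or more removed its median share was 25.6% and 26.4% in screens 2 and 3 and 80.9% in screen 4, and at 70 to 94 nt removed 51.5% and 60.8% in screens 2 and 3 and 71.2% in screen 4.

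At 90% or more spliced in siNT cells the pattern was the same at the long end. With 120 nt or more removed (220 inserts) the median share was 57.2% and 50.4% on chromatin, against 74.6% and 63.5% in run-on RNA. With 95 to under 120 nt removed (186 inserts) the libraries overlapped, with 66.7% and 62.0% on chromatin, against 68.3% and 46.9% in run-on RNA. With 70 to 94 nt removed (155 inserts) the share was 60.4% and 55.2% on chromatin, against 57.9% and 36.6% in run-on RNA, which overlap. In that last class 46 inserts (29.7%) had both chromatin shares above both run-on shares, and 13 (8.39%) below. Of all 2004 inserts these shares were 13.9% above and 25.7% below. Among inserts spliced at 10 to 50% in siNT cells chromatin medians were the lower ones at 95 to under 120 nt as well. With 120 nt or more removed (74 inserts) the median share was 0% in both chromatin libraries, against 1.77% and 0.91% in run-on RNA. With 95 to under 120 nt removed (89 inserts) it was 0% and 0.27% on chromatin, against 1.76% and 0.81% in run-on RNA. With 70 to 94 nt removed (110 inserts) the chromatin libraries were higher, at 2.75% and 4.35%, against 2.00% and 1.76% in run-on RNA. Under 70 nt removed, inserts spliced at 10 to 90% in siNT cells, which were few, were also lower on chromatin. Those spliced at 50 to 90% (16 inserts) had 4.58% and 0% on chromatin, against 40.8% and 29.7% in run-on RNA. Those spliced at 10 to 50% (44 inserts) had 0.07% and 2.05% on chromatin, against 10.3% and 13.9% in run-on RNA. Without a split by length, 77 of 191 inserts spliced at 1 to 10% in siNT cells had both chromatin shares below both run-on shares (40.3%). Another 10 (5.24%) had both above. At 10 to 50% these were 116 of 353 (32.9%) and 48 (13.6%), and at 90% or more 109 of 594 (18.4%) and 127 (21.4%). A lean to lower chromatin shares was thus not confined to the long class.

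**Figure D2:**
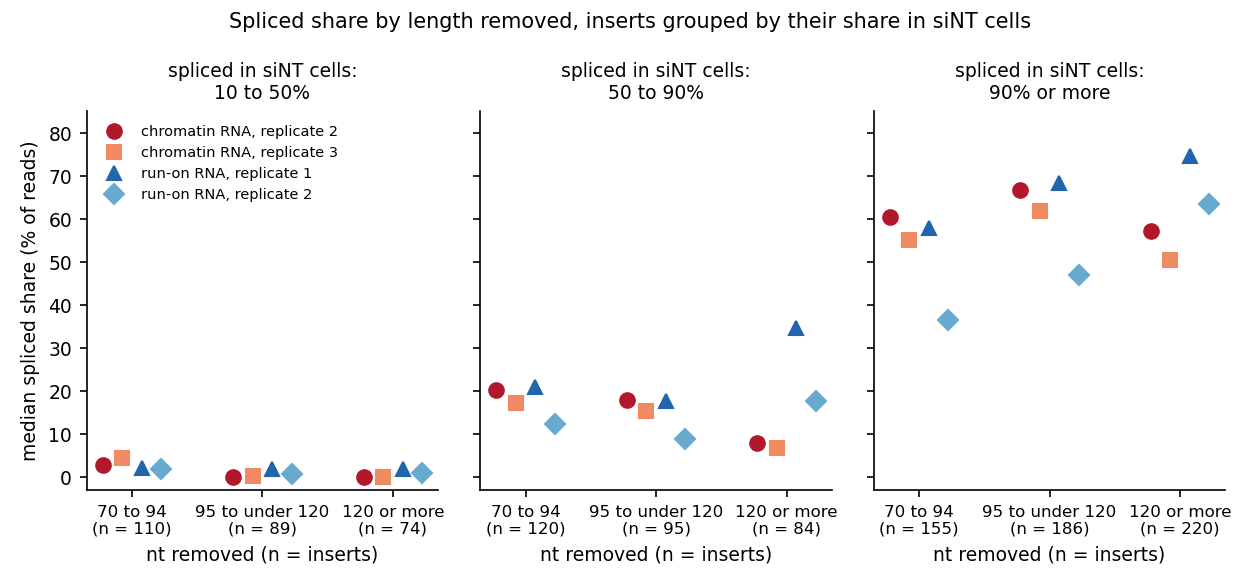
Median spliced share (percent of reads) in each chromatin and run-on library, for inserts grouped by their spliced share in siNT cells (panels) and by nucleotides removed (x axis). At 120 nt or more removed, both chromatin points lie below both run-on points in all 3 panels, and in no panel do they at 70 to 94 nt. In the panel of 10 to 50% they also do so at 95 to under 120 nt. Inserts with under 70 nt removed are not drawn.

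Total RNA of the same screens moved with this result. At inserts with 120 nt or more removed its median share was 55.3% and 58.2% in screens 2 and 3, which gave the chromatin RNA, and 89.7% in screen 4, which gave run-on replicate 1. In screen 1 it was 79.3%. The part of these screen differences in the result was not tested, and screen 5 had no total RNA. Set against total RNA of the same screen on the log2 odds scale (prior count of 2 reads), the median insert of the class was at -2.48 and -2.91 in the chromatin libraries, against -4.10 in run-on replicate 1 (459 inserts). Over all inserts with a spliced reference these values were -1.83 and -2.23 on chromatin, against -3.13 in run-on replicate 1 (1955 inserts). Measured this way, run-on RNA of screen 4 was farther below its total RNA than either chromatin library was below its own, whatever the length removed from 70 nt on. Depth differed too, since the median insert had 5713 total RNA reads in screen 4, against 1281 and 1311 in screens 2 and 3. The part of depth in this distance was not tested.

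No single insert passed the test of its spliced share. Of 2004 inserts, 0 were called (0%) by edgeR's quasi-likelihood test on spliced and unspliced counts, with a smallest adjusted p of 0.522. At an unadjusted p under 0.05 there were 161 (8.03%), of which 52 were higher and 109 lower on chromatin. A limma fit of log2 spliced over unspliced counts also called 0, with a smallest adjusted p of 0.131. Leaving out any 1 of the 4 libraries gave 0 calls by edgeR.

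Examples are the inserts with the smallest p for their spliced share in each direction, none of them called. Neither chromatin library had a spliced read for sequence_01124 (73 nt removed), in 374 and 282 reads, against 1066 of 2062 and 1698 of 3956 reads in the run-on libraries. Its share was thus 0% in both chromatin libraries, against 51.7% and 42.9% in run-on RNA. Total RNA of screens 2 and 3 gave 5.76% and 4.87%, and that of screen 4 gave 22.7%. The edgeR quasi-likelihood test gave it an adjusted p of 0.522.

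A second insert with no spliced chromatin read, sequence_15866 (84 nt removed), had 0 of 11496 and 0 of 23678 reads there, against 8 of 13296 and 8 of 11290 in run-on RNA. These run-on shares were 0.0602% and 0.0709%, so the insert had a small p at a very small difference. They rest on few spliced reads, counted without molecular identifiers. In the other direction, sequence_12317 (113 nt removed) was spliced in all of its 198 and 44 chromatin reads, against 78 of 512 (15.2%) and 88 of 314 reads (28.0%) in run-on RNA. Likewise sequence_12779 (86 nt removed) was spliced in all of 94 and 428 chromatin reads, against 190 of 926 (20.5%) and 496 of 1542 reads (32.2%) in run-on RNA. Both of these were mostly spliced in every total RNA library, at 76.7% or more. Their adjusted p by edgeR was also 0.522.

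Many inserts had no spliced read on chromatin. Of the 2004 inserts, 42.6% and 40.9% had none in the chromatin libraries, against 21.5% and 21.6% in the run-on libraries. Spliced reads in both run-on libraries and in neither chromatin library were found at 272 inserts (13.6%), and the reverse at 12 (0.599%). In all 4 libraries they were found at 977 inserts (48.8%), and in none at 325 (16.2%). Depth moved with this, since the median insert had 872 and 720 reads on chromatin, against 2405 and 2828 in run-on RNA, and its part was not tested. At the other end, 6.84% and 6.49% of inserts were over 90% spliced on chromatin, against 7.58% and 4.24% in run-on RNA.

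Over all inserts compared for the choice between splice forms, the medians of the 2 kinds of RNA overlapped. Of 138 inserts with 2 spliced forms, 46 had enough spliced reads in each of the 4 libraries, with a median of 94.5 nt removed by the short form and 113.5 nt by the long one. The long form took a median of 36.5% and 44.9% of spliced reads on chromatin, against 42.1% and 36.9% in run-on RNA. Both chromatin values were above both run-on values at 10 inserts and below them at 13.

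The levels of inserts differed little more between the kinds of RNA than between replicates of 1 kind. The median absolute difference of an insert's level was 0.91 to 1.04 on the log2 scale between a chromatin and a run-on library. It was 0.87 between the chromatin replicates and 0.92 between the run-on replicates. Across the 14208 inserts, levels correlated with a Pearson r of 0.41 between the chromatin libraries and 0.41 between the run-on libraries. Between a chromatin and a run-on library r was 0.31 to 0.34. These are correlations across inserts, described without a test.

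No insert passed the test of its level either. Of 14208 inserts, 0 were called (0%) by edgeR's quasi-likelihood test, fitted on all 13 untreated Pou5f1 libraries with the screen as a term, and the smallest adjusted p was 0.0699. At an unadjusted p under 0.05 there were 1056 (7.43%), of which 513 (3.61%) were higher and 543 (3.82%) lower on chromatin. With at least 200 reads in each of the 4 gDNA libraries edgeR called 3, namely sequence_12280 and sequence_11797 higher and sequence_09731 lower (adjusted p = 0.0433 each). DESeq2 called 318, of which 150 were higher and 168 lower. Without chromatin replicate 3 edgeR called 174 inserts, 14 higher and 160 lower, and without any other single replicate 0. The p-values measure the spread between these libraries, and those of total RNA share it.

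Inserts whose libraries did not overlap were about as many in each direction. Both chromatin levels were above both run-on levels at 2592 inserts (18.2%) and below both at 2754 (19.4%). With a difference of means over 2-fold these were 1693 (11.9%) and 1870 (13.2%). The difference, chromatin minus run-on, ran from -3.33 at the 5th percentile to 2.28 at the 95th, with a median of -0.04. This difference of means narrowed with gDNA depth, with a median size of 1.56 among the 2843 inserts with fewest gDNA reads and 0.46 among the 2841 with most. The difference between the chromatin replicates narrowed alongside, at 1.48 and 0.55.

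**Figure D3:**
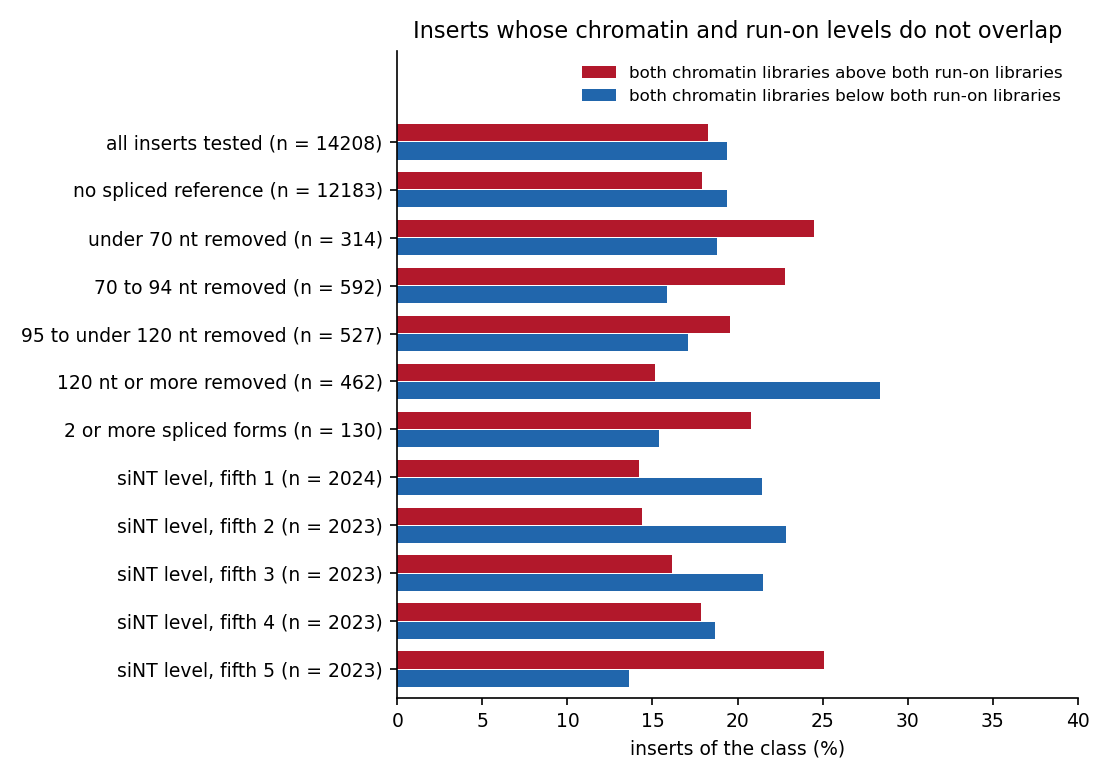
Percentage of inserts whose chromatin levels were both above (red) or both below (blue) the run-on levels, for all inserts tested and by class. Of the classes drawn, inserts with 120 nt or more removed had the highest share below (28.4%), and the quintile with the most siNT total RNA the highest share above (25.1%).

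The long class also stood apart in its levels. Inserts with 120 nt or more removed (462 tested) had a median level of 0.44 and 0.45 on chromatin, against 0.68 and 0.69 in run-on RNA. The difference of -0.24 was larger than the gap between replicates of either kind (exact permutation p = 0.333, two-sided, the smallest possible). On unspliced reads alone the levels were -0.04 and 0.01 on chromatin, against -0.29 and 0.20 in run-on RNA, so the libraries overlapped. Both chromatin levels were below both run-on levels at 131 of the 462 (28.4%) and above at 70 (15.2%), beside 19.4% and 18.2% of all inserts tested. Per total RNA of the same screen the median was -0.51 and -0.48 on chromatin, against -1.43 in run-on replicate 1. By edgeR's unadjusted p under 0.05, 20 of these inserts (4.33%) were higher and 5 (1.08%) lower on chromatin, beside 3.61% and 3.82% of all inserts tested, the reverse of the count of libraries that do not overlap. Total RNA of screens 2, 3 and 4 also enters the screen terms of that fit, and its median log2 fold change for the class was 0.00.

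In the class with 70 to 94 nt removed, the 592 tested inserts had a median level of 0.51 and 0.50 on chromatin, against 0.45 and 0.21 in run-on RNA. Both chromatin levels were above both run-on levels at 135 (22.8%) and below at 94 (15.9%), beside 18.2% and 19.4% of all inserts tested. By edgeR's unadjusted p under 0.05, 42 (7.09%) were higher and 13 (2.20%) lower, beside 3.61% and 3.82% of all inserts tested. Here too total RNA enters the screen terms of the fit.

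With spliced and unspliced reads added, the 2025 tested inserts with a spliced reference, taken as 1 class, stood above the other 12183 in each kind of RNA. The kinds overlapped in how far. The gap between the class medians was 0.49 and 0.56 on chromatin, against 0.52 and 0.38 in run-on RNA. The means were 0.53 ± 0.04 and 0.45 ± 0.10 (SD, n = 2 each), and the difference of 0.07 gave an exact permutation p = 0.667 (two-sided). Per total RNA of the same screen the gap was -0.46 and -0.52 on chromatin, against -0.91 in run-on replicate 1. Inserts without a spliced reference had medians of -0.07 and -0.07 on chromatin, against -0.07 and -0.05 in run-on RNA. On unspliced reads alone, inserts with a spliced reference had medians of 0.04 and 0.15 on chromatin, against -0.06 and 0.08 in run-on RNA. Those without one had -0.01 and -0.02 on chromatin, against 0.01 and -0.01 in run-on RNA. In run-on replicate 1 the class thus stood below the others on this measure.

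Both kinds of RNA followed the order of inserts in steady-state RNA, over a smaller range. Inserts were sorted into quintiles by their total RNA per gDNA in siNT cells (10116 inserts). The lowest quintile had a median level of -0.89 and -1.05 on chromatin, against -1.24 and -0.51 in run-on RNA. The highest had 0.88 and 0.86 on chromatin, against 0.90 and 0.54 in run-on RNA. The distance between them was 1.77 and 1.91 on chromatin, against 2.14 and 1.05 in run-on RNA, so the chromatin libraries lay between the run-on replicates. It was 3.05 to 4.15 in the 4 total RNA libraries.

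**Figure D4:**
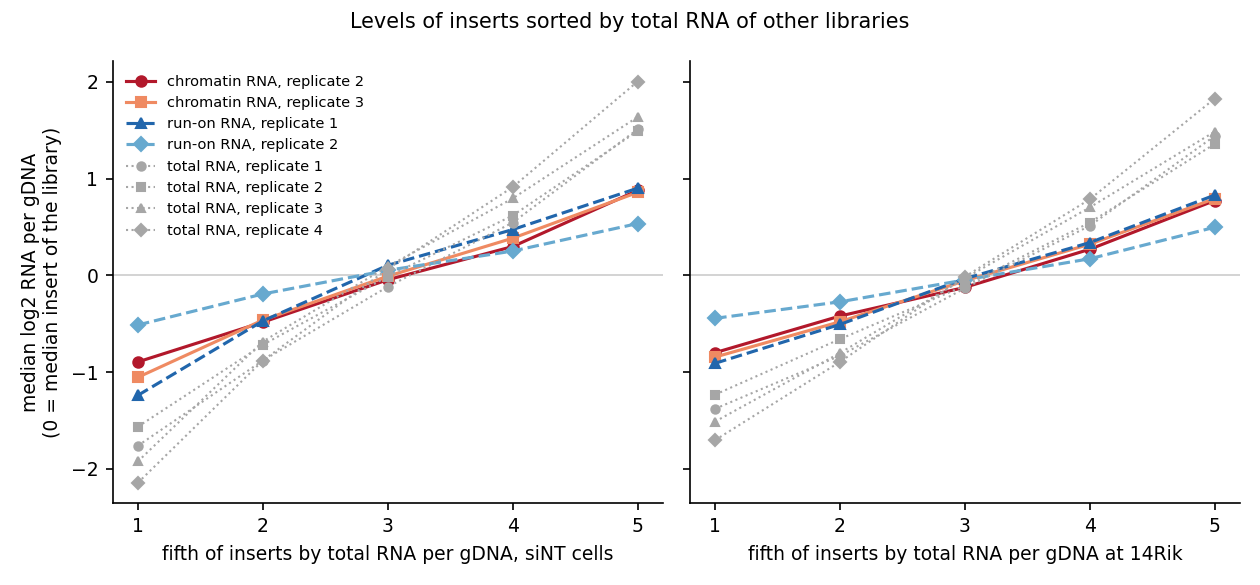
Median level (log2 RNA per gDNA, 0 is the library's median insert) by quintile of total RNA per gDNA in siNT cells (left) and at the 14Rik site (right), 1 line per library. All libraries rise from the lowest to the highest quintile, total RNA (grey) most steeply and run-on replicate 2 least.

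In the highest siNT quintile (2023 inserts), both chromatin levels were above both run-on levels at 508 inserts (25.1%) and below at 275 (13.6%). In the lowest (2024 inserts) they were above at 288 (14.2%) and below at 434 (21.4%). Of all inserts tested these shares were 18.2% above and 19.4% below. By edgeR's unadjusted p under 0.05, 167 inserts of the highest quintile (8.26%) were higher and 28 (1.38%) lower. In the lowest, 28 (1.38%) were higher and 105 (5.19%) lower, beside 3.61% higher and 3.82% lower of all inserts tested. The small range of run-on replicate 2 stood beside these counts, and its part was not tested. Total RNA of screens 2, 3 and 4 also enters the screen terms of the edgeR fit. Its distance between the quintiles was 3.05 and 3.56 in screens 2 and 3, against 4.15 in screen 4. The part of this in the edgeR counts was not tested.

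The second integration site gave the same order. At 14Rik, a long non-coding RNA gene in which the inserts were also integrated, total RNA per gDNA sorted 13252 inserts into quintiles. The distance between the highest and the lowest was 1.57 and 1.64 on chromatin, against 1.74 and 0.94 in run-on RNA. Sorting by the change of total RNA after siRNA against RRP40, a core subunit of the RNA exosome, which degrades nuclear RNA, gave small ranges. Inserts of the quintile with the highest change stood below those of the lowest by 0.26 and 0.44 on chromatin, against 0.55 and 0.21 in run-on RNA. In total RNA this distance was 0.67 to 1.17.

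Inserts with no read at all were more frequent in chromatin RNA than in run-on RNA. Of the tested inserts, 845 (5.95%) and 971 (6.83%) had no read in the chromatin libraries, against 3 and 11 (0.0211% and 0.0774%) in the run-on libraries. At 289 inserts neither chromatin library had a read, and at 1 insert neither run-on library had one. Scaled down to the read totals of the chromatin libraries, 43 to 114 inserts of a run-on library would hold under 1 read pair. The 289 inserts had a median of 340.0 gDNA reads, against 1145 for all inserts tested, and a median of 650.0 reads over both run-on libraries. Total RNA replicates 2 and 3, of the same screens as the chromatin RNA, lacked reads at 3.45% and 7.81% of inserts, and replicate 4 at 0%. The part of the screen and of the number of cells or molecules that entered each library was not tested.

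The inserts with the smallest p for their level are given as examples, none of them called. For sequence_12280, chromatin RNA gave 1288 and 1966 reads for 496 and 1426 gDNA reads, against 24 and 20 run-on reads for 366 and 792 gDNA reads. Its level was 1.50 and 0.64 on chromatin, against -4.24 and -6.07 in run-on RNA, a fitted log2 fold change of 6.05 (SE 0.86, adjusted p = 0.0699, edgeR). Over edgeR alternatives with all 4 RNA libraries, its adjusted p ran from 0.00851 without the screen term to 0.4 on the 8 libraries alone. The fits of unspliced reads only and of the 8 libraries without the screen term were not read out per insert. In total RNA its level was 0.20 to 1.64. Thus the run-on libraries stood apart from the other RNA libraries there.

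A like pattern was read at sequence_11797, which has no spliced reference. It had 1256 and 1904 chromatin reads for 1774 and 1840 gDNA reads, against 100 and 84 run-on reads for 1592 and 2006 gDNA reads. Its level was -0.37 and 0.23 on chromatin, against -4.38 and -5.44 in run-on RNA (log2 fold change 4.50, SE 0.64, adjusted p = 0.0699, edgeR). Over the same edgeR alternatives the adjusted p ran from 0.00485 to 0.4. In total RNA its level was -0.92 to 0.09.

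In the other direction the chromatin libraries were nearly empty. Neither had a read for sequence_09731, at 742 and 386 gDNA reads, against 1018 and 4694 run-on reads for 2936 and 2914 gDNA reads. With a floor of 3 read pairs (6 reads) in each chromatin library, its level was at least 38.1-fold lower on chromatin (adjusted p = 0.0699, edgeR). Over the same edgeR alternatives the adjusted p ran from 0.00468 to 0.4. The bound on the fold covers counting error only, since reads without molecular identifiers are not independent molecules. Its total RNA level was -2.44 to -1.08, between the chromatin and the higher run-on value. For sequence_14837 the chromatin libraries had 2 and 0 reads for 796 and 668 gDNA reads, against 1518 and 2682 run-on reads for 2420 and 1862 gDNA reads (adjusted p = 0.0699, edgeR). Neither of these has a spliced reference.

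**Figure D5:**
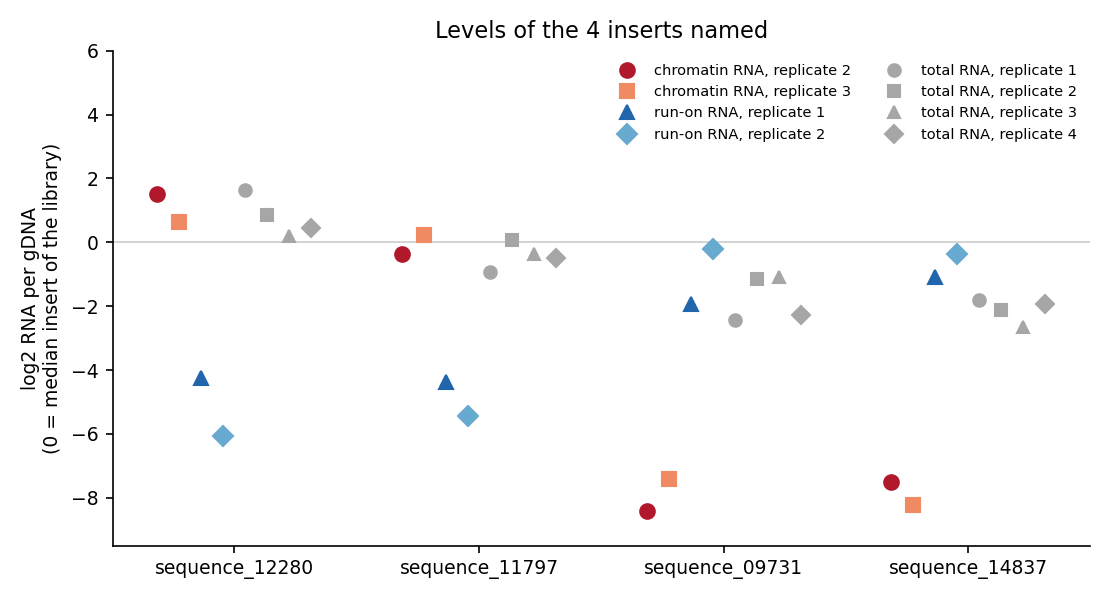
Level (log2 RNA per gDNA, 0 is the library's median insert) of 4 inserts in each library. At sequence_12280 and sequence_11797 both run-on points are far below the chromatin and total RNA points, and at sequence_09731 and sequence_14837 both chromatin points are below all others.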

How the data were processed

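The deposited counts are reads per reference sequence as the authors counted them, on unspliced and spliced references for RNA and on unspliced references for gDNA, per the file headers and names. The submitters' processing notes name cutadapt 1.14 and Bowtie2 2.3.4.3. All counts are even numbers, which is what counting the mates of a read pair separately yields. RNA was amplified by PCR without molecular identifiers, per the labels' protocols. The choice of spliced references is not described in the labels.

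Unspliced and spliced counts of an insert were added to give its RNA. Levels were tested with edgeR 4.0.16 (quasi-likelihood, TMM scaling, R 4.3.3) in 1 fit of all 13 untreated Pou5f1 libraries with kind and screen as terms, on inserts with at least 50 reads in each of the 4 gDNA libraries. Shares were tested with edgeR on the 8 RNA libraries, on inserts with at least 20 reads in each of the 4 RNA libraries compared. Adjusted p-values are Benjamini-Hochberg over all inserts of a test, with a threshold of 0.05. Class medians, 1 value per library, were compared by exact permutation over 6 regroupings. DESeq2 1.42.0 and limma 3.58.1 were alternatives. The main edgeR tests of levels and of shares were run on data simulated from their own fits, with the outcome not printed here. The planted changes were large for levels and very large for shares, so that check does not cover smaller ones.

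Run-on and total RNA libraries were paired with gDNA by the labels. Chromatin RNA was paired by the replicate number that it shares with total RNA. The difference between replicates correlated with that of their gDNA at 0.23 for chromatin RNA and 0.008 for run-on RNA. Whether replicates came from separate cultures is not stated beyond the replicate numbers, so the p-values measure the spread between these libraries.

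The inserts named are those with the smallest p in each direction, with a mean of at least 200 gDNA reads and libraries that do not overlap for levels, since none were called. The same rule among inserts without a spliced reference gave 1 further insert, not printed. Libraries, classes and lists were chosen with earlier results of these data known.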

Additional observations from a re-analysis of the deposited data

How the results depend on the processing

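For levels, 0 inserts were called with the 8 libraries alone, library totals, at least 2 gDNA reads, unspliced reads only and read pairs (halved counts, added after seeing the data), with smallest adjusted p of 0.0571 to 0.4. With at least 200 gDNA reads 3 were called, and by DESeq2 318. Without the replicate block, that is without the screen pairing RNA with its gDNA, 91 were called. Of alternatives added after seeing the data, the 8 libraries without the block gave 387 and DESeq2 on those 8 gave 1073. Leaving out 1 replicate gave 0 to 174. For shares, all alternatives gave 0. The spliced-reference gap was 0.07, -8.63e-05 to 0.15 with 1 replicate left out, and 0.42 per total RNA of the same screen. The median share differed by -0.71 points, -1.96 to 0.53 with 1 left out, and -5.43 on pooled reads. At 70 to 94 nt removed, minima of 100 and 200 reads gave 4.20 and 5.59 points, and pooled reads 1.65 points, where the libraries overlap. The level of inserts with 120 nt or more removed differed by 0.031 on unspliced reads, -0.17 with at least 200 gDNA reads and 0.94 per total RNA, and their share by -21.9 to -18.0 points with other minima or pooled reads. These alternatives for length classes were added after seeing the data. The cause of these shifts was not tested. With 2 libraries of a kind, run at unequal depth and from different screens, neither small differences nor the screen can be separated from the kind of RNA.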

Other observations

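The 44 inserts with under 70 nt removed and a spliced share of 10 to 50% in siNT cells were also counted. Both chromatin shares were below both run-on shares at 22 (50.0%) and above at 3 (6.82%), beside 25.7% and 13.9% of all 2004 inserts. In total RNA the median share of the 44 inserts was 9.28%, 6.30%, 0.49% and 17.6% in screens 1 to 4. Screen 4, which gave run-on replicate 1, was thus again the highest. These are values of few inserts, described without a test.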
